A study of Mus musculus with 26 samples.

Results

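DNA methylation of 4 genes known from brain disease was followed in sperm by reduced representation bisulfite sequencing (RRBS) of 26 male mice. The genes were App, Mapt, Clu and Slc6a4, which the study had picked out from differentially methylated cytosines between offspring of the maternal line and controls, so measured values of these libraries chose them. Every CpG position inside the RefSeq span of a gene or within 2000 bp of it was taken if it had at least 10 reads in a library, and 877 such positions of 2626470 belonged to the 4 genes, out of 38947 genes with a position. Each strand of a CpG is a position of its own.

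Spermatogonial stem cell transplantation (SSCT) places cultured stem cells of the male germline into the testis of a sterile recipient, where they form sperm. The SSCT F0 group held 3 such recipients, W/W-v mutant males of the WBB6F1/J background transplanted with cultured stem cells of neonatal DBA/2J mice, so that their own germ cells contribute no sperm. Control F0 mice were 3 untransplanted males of DBA/2J, and both F0 groups were 16 to 18 months old. Sperm of SSCT F1, SSCT F2/M (reached through SSCT F1 females, the maternal line), SSCT F2/P (through SSCT F1 males, the paternal line) and Control F1 males was taken at 3 months, with 5 mice in each group. Replicates were single mice. The recipients had received stem cells of several cultured lines, and mice of the SSCT offspring groups descend from at most 3 transplanted males. Control F1 mice likewise descend from at most 3 control males, and all offspring were bred with DBA/2J mates.

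Methylation of a cytosine before a guanine (CpG) is copied at cell division, removed from germ cells in the embryo and set again before birth in the male germline. In sperm the CpG-rich starts of many genes are unmethylated, while gene bodies and the DNA between genes are mostly methylated. App encodes the amyloid precursor protein, from which the amyloid peptide of plaques is cut, and Mapt encodes tau, which binds microtubules and forms the tangles of Alzheimer's disease. Clu encodes clusterin, a secreted chaperone that binds misfolded proteins, and Slc6a4 encodes the transporter that returns serotonin into neurons.

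The names of the offspring libraries conflicted between sources. The sample titles were used here. The heat map of the study gives other names to the same sets of 5 libraries: those titled SSCT F2/P are SSCT F1 there, those titled SSCT F2/M are Control F1, those titled Control F1 are SSCT F2/M and those titled SSCT F1 are SSCT F2/P. The heat map with both F2 sets exchanged was run as another assignment, and a treatment label calls the sets titled Control F1 and SSCT F2/M both wild type. The sets of libraries are the same under all 3 assignments, so the values of a library hold in any case, while every comparison between offspring groups depends on the names. With both F2 sets exchanged, 714746 positions were tested for SSCT F1, 609376 for SSCT F2/M, 664292 for SSCT F2/P and 504820 for pooled F2. By the titles the totals were 597327, 664292, 695138 and 569824. The totals the study lists are almost those of the exchanged names in each comparison and lie far from those of the titles. The comparisons of the study thus used the exchanged names, and group names given here by the titles may be wrong. By the exchanged names, the set titled SSCT F2/M is the control and the set titled Control F1 is SSCT F2/P. The sets titled SSCT F1 and SSCT F2/P are then compared below without control mice.

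Read counts summed over positions were between 45616751 and 87707577 per library. In the 23 libraries other than SSCT F0, the mean methylation of positions with at least 10 reads was 31.6 to 37.6%, and at 30.7, 17.7 and 6.36% the 3 SSCT F0 libraries were all lower. SSCT F0 libraries were made from less DNA and covered 1977100, 1123580 and 305964 positions, against at least 1995496 in the others. The upstream region of H19, methylated in sperm as a paternal imprint, was at 88.8 to 100% in the 23 libraries, and the promoters of Mest, Peg3 and Plagl1, which sperm leave unmethylated, had medians of 2.78, 1.13 and 1.91%. H19 in the SSCT F0 libraries was at 97.4% in replicate 1 and at 0% in replicate 2, where 1 position was covered, and had no covered position in replicate 3, where Peg3 was at 33.3%. Snrpn had no covered CpG.

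App spans chr16:84952666-85175255 (GRCm38, gene ID 11820) and had 348 positions with at least 10 reads in a library, of which 93 had them in all 20 offspring. Mapt spans chr11:104229409-104332090 (17762), with 331 and 29 positions. Clu spans chr14:65968483-65981548 (12759), with 70 and 19, and Slc6a4 spans chr11:76998597-77032343 (15567), with 128 and 32. The median number of reads at a position in the offspring was 33 for App, 23 for Mapt, 31 for Clu and 26 for Slc6a4. The SSCT F0 libraries kept far fewer positions, for App 195, 106 and 13 and for Slc6a4 89, 74 and 10. No position of Mapt was kept in all 26 libraries, against 7 of App, 1 of Clu and 2 of Slc6a4.

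The RefSeq promoter sequences of Slc6a4 and App are shown because unmethylated runs at the start of both genes reach into them. They are the 250 bases before the annotated start in GRCm38.p6, for Slc6a4 on the plus strand at chr11:76998347-76998596 and for App on the minus strand at chr16:85173708-85173957, and capitals mark each CG at which methylation was measured.
Slc6a4: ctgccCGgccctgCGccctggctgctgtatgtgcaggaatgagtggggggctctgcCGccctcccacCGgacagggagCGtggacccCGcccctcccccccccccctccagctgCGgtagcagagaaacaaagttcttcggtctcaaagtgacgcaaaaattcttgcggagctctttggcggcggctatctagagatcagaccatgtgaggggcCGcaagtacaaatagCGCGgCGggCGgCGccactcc
App: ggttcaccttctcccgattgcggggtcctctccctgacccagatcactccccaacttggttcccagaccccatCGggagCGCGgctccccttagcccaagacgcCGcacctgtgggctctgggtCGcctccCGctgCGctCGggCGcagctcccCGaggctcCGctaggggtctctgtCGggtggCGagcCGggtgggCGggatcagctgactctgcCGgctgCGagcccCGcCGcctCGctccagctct
The Slc6a4 sequence holds 18 CG and the App sequence 23, where the median of 27025 promoters of this length is 6, and 21.6% and 13% of them hold as many. Measurements covered 13 CG of Slc6a4 at 15 positions and 20 CG of App at 27.

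Both promoters were almost free of methylation in every group. The Slc6a4 promoter had a mean methylation of 4.7% ± 5.41 (SD, n = 3) in Control F0, 1.1% ± 1.71 (n = 5) in Control F1, 1.52% ± 2.06 in SSCT F1, 5.32% ± 4.63 in SSCT F2/P, 0.234% ± 0.523 for SSCT F2/M mice, and 0% in both SSCT F0 libraries that covered it. The App promoter had 1.81% ± 1.02 in Control F0, 0.893% ± 1.16 in SSCT F0, 1.26% ± 1.13 in Control F1, 2.87% ± 1.4 in SSCT F1, 1.62% ± 0.692 in SSCT F2/P and 2.11% ± 1.96 for SSCT F2/M mice. Standard deviations were near or above the mean in most groups, and well below it for App in Control F0, SSCT F1 and SSCT F2/P.

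Along the genes, methylation was close to 0 over the start and high over most of the body. Runs of at least 3 positions below 20%, with at least 10 reads in 15 or more offspring libraries, were marked after the values had been seen. The run at the App start held 65 positions between chr16:85172689 and 85173876 with a mean of 1.36%. At Slc6a4 it held 62 positions between chr11:76996928 and 76998650 with 1.81%, and at Clu 28 positions between chr14:65968544 and 65968895 with 1.86%. The Mapt run, 25 positions between chr11:104231197 and 104232721, had a mean of 1.33%. The 4 genes therefore had the same pattern at the start, with group means in the offspring between 0.929 and 2.63%.

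**Figure D1:**
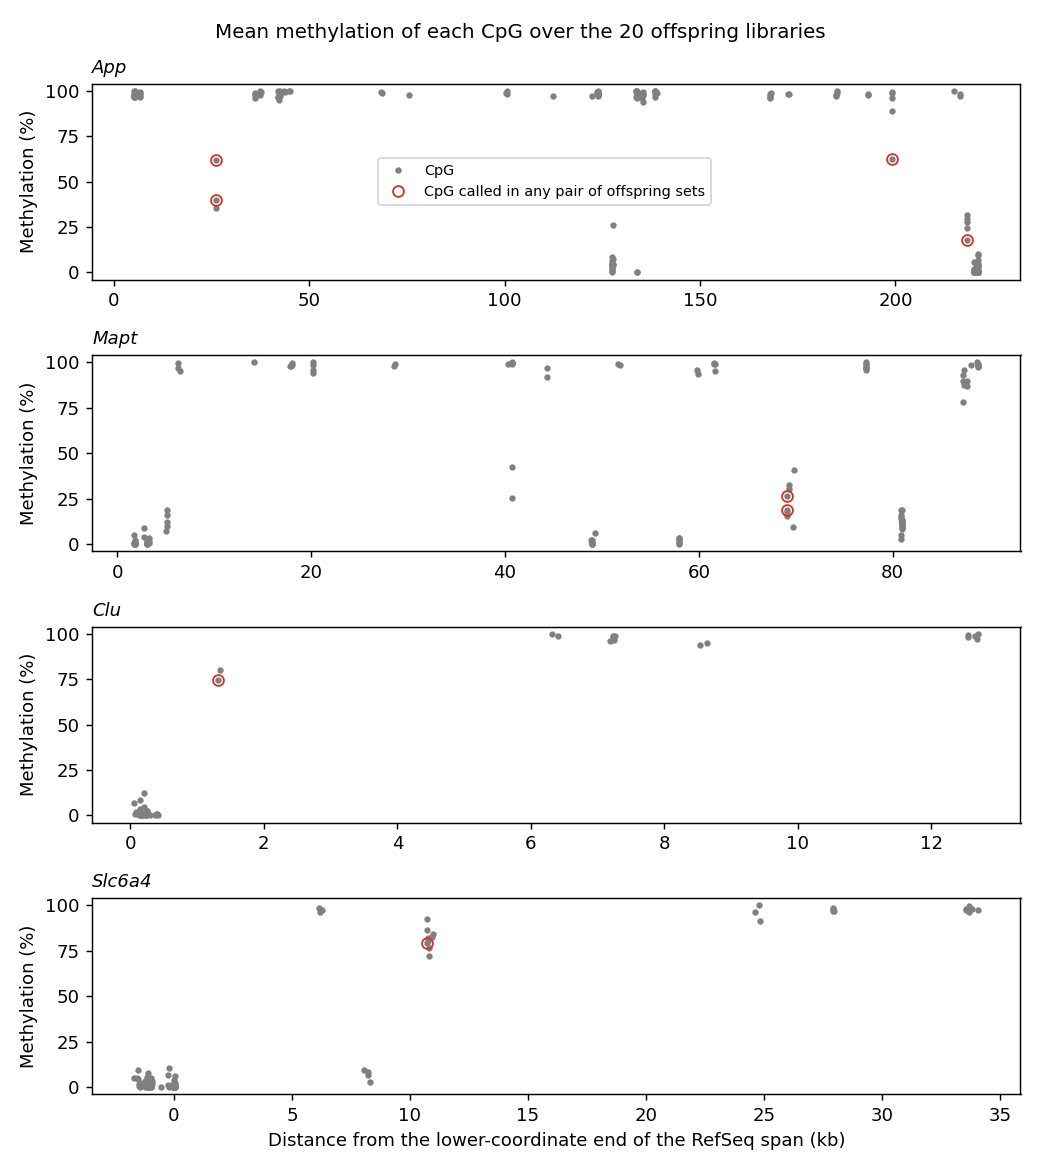
Mean methylation of each CpG position (vertical axis, percent) along App, Mapt, Clu and Slc6a4 (horizontal axis, distance within the span), over the 20 offspring libraries. Points near 0% gather at the starts and in a few short stretches of the bodies, and most other positions are above 80%.

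Short unmethylated stretches also lay inside the gene bodies. In App, 11 positions between chr16:85080164 and 85080274 had a mean of 3.97%, next to a position at 97.9%. In Mapt, 7 positions between chr11:104278328 and 104278683 had 1.59% and 6 positions between 104287325 and 104287373 had 1.8%, with positions at 96.0 to 99.0% on both sides. A further Mapt stretch of 18 positions, 104310285 to 104310374, had 11.8%. In these stretches the means of the offspring groups ranged from 0.056 to 14.1%. Which exons or introns they lie in is not given by the annotation used here.

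Of the 173 positions covered in all 20 offspring, 81 (46.8%) had a mean under 20%, 84 (48.6%) a mean over 80%, and 8 (4.62%) lay between. Over all 457806 such positions of the genome the shares were 63.3, 29.8 and 6.91%. Clu was mostly low, with 14 low and 4 high positions of 19, and App mostly high, with 32 low and 56 high of 93. Mapt had 17 low and 11 high of 29 and Slc6a4 18 low and 13 high of 32. The spread between mice of a group followed the class. The median standard deviation was 5.11 points at low, 4.36 at high and 25.1 at intermediate positions, and 3.66, 5.24 and 18.6 points over the genome.

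**Figure D2:**
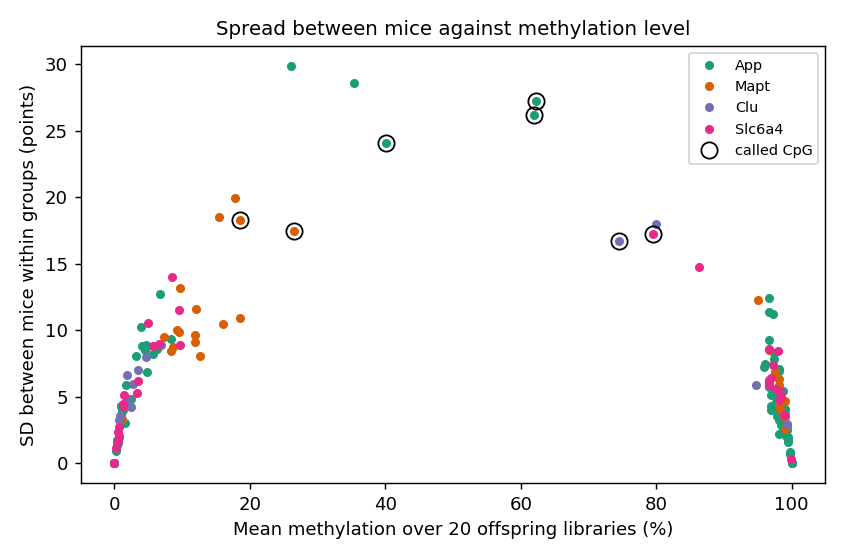
Spread between mice within groups (vertical axis, standard deviation in percentage points) against mean methylation over the 20 offspring libraries (horizontal axis, percent) for the positions of the 4 genes, with rings around called CpGs. The spread is lowest near 0 and 100% and highest between, with medians of 5.11, 4.36 and 25.1 points in the low, high and intermediate classes.

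The mean methylation of each gene differed by a few points at most between the offspring groups. Over its 93 shared positions App was at 62.0% ± 0.917 (SD, n = 5) in Control F1, 62.8% ± 0.513 in SSCT F1, 62.3% ± 0.59 for SSCT F2/M mice and 62.3% ± 0.71 for SSCT F2/P mice. Mapt, over 29 positions, was at 46.0% ± 1.27, 43.6% ± 2.13, 46.2% ± 2.32 and 42.8% ± 1.77 in the same order. Clu, over 19 positions, was at 25.4% ± 1.31, 24.8% ± 1.06, 24.0% ± 1.23 and 25.4% ± 2.53. Slc6a4, over 32 positions, was at 43.3% ± 1.16, 45.3% ± 1.5, 42.4% ± 1.1 and 43.9% ± 0.96. From one group to the next in the order of the means, the mice overlapped for all 4 genes, while Mapt did not overlap between Control F1, at 44.4 to 47.5%, and SSCT F2/P, at 39.98 to 44.3%. How many of all genes lack overlap in this way was not counted. Over the 59 positions covered in all libraries of these groups, Mapt was 0.906 points higher in SSCT F2/P. Over the positions also covered in the controls of the older generation, Control F0 was at 63.0% ± 0.989 (n = 3) for App, 46.9% ± 3.79 for Mapt, 22.7% ± 1.51 for Clu and 40.4% ± 0.878 for Slc6a4.

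**Figure D3:**
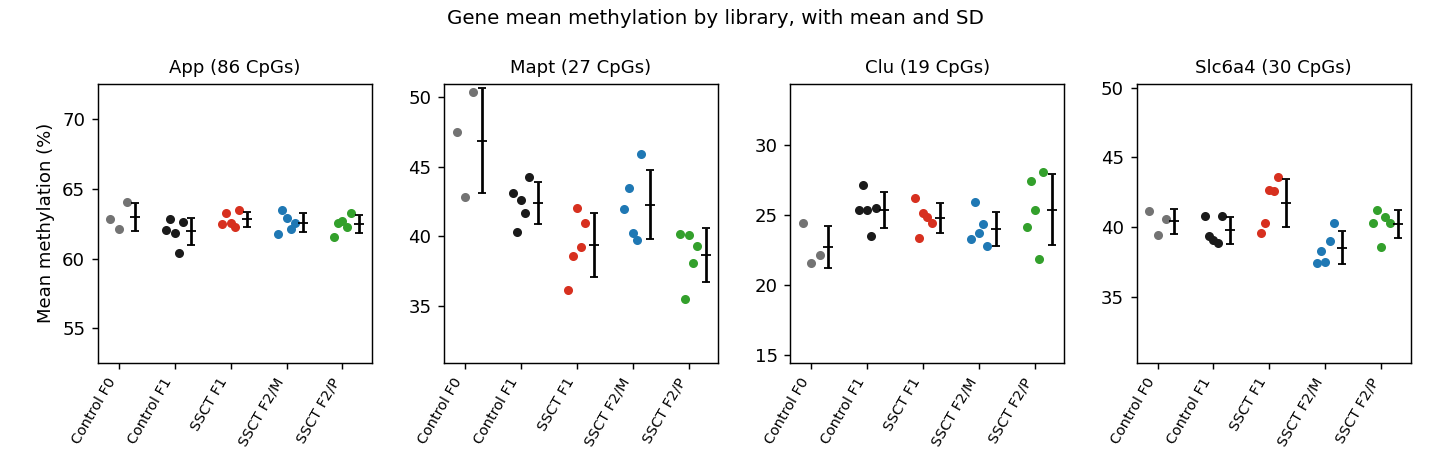
Mean methylation of each gene (vertical axis, percent) in each mouse (points) by group (horizontal axis) over the positions shared by the 20 offspring and 3 Control F0 libraries, with group mean and standard deviation. The groups overlap for App, Clu and Slc6a4, and the Mapt points scatter most, with Control F0 between 42.8 and 50.3%.

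The first comparison asked whether sperm formed from transplanted cells differed from that of untreated males, and it did not use the offspring in which the genes had been found. Only 20 positions of the 4 genes had at least 10 reads in all 6 F0 libraries, and 0 of 20 were called differentially methylated (a q-value under 0.01 in a likelihood-ratio test of methylated against unmethylated reads and a difference above 25 percentage points), where 5.83% of all 82250 positions were called. A read can be a copy of another one after PCR, and this test takes no account of how much mice of a group vary, so calls cover counting error only. Windows of 1000 bp gave 0 calls of 7, against 10.0% of all windows. The F test, which does so, called 0 (0.0% of all positions), and 0 at an unadjusted p under 0.05 (1.1% of all). App had a mean over 10 positions of 11.1, 18.6 and 10.1% in SSCT F0 and of 12.6, 10.1 and 11.7% in Control F0, an SSCT F0 excess of 1.79 points (exact permutation test over mice, two-sided, p = 0.9). Mapt, over 6 positions within 1 window of 1000 bp, was at 5.75, 0 and 0% in SSCT F0 and 5.56, 17.6 and 18.6% in Control F0. It differed by -12.0 points (exact permutation p = 0.2, adjusted over all genes 0.959), and this short stretch does not stand for the whole gene. The smallest p that 3 mice against 3 allow is 0.1, and 0.0% of all genes fell under 0.05. Clu and Slc6a4 had 2 positions each, too few for a mean.

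SSCT F0 replicate 3 decided how much could be compared. Without it 192 positions were tested and 10 were called, 4 higher and 6 lower in SSCT F0, again beside 5.83% of all positions. They were App 85173682 and Mapt 104232171, 104232508 and 104232547, which were higher, and App 85151872 and 85151875, Mapt 104298667 and 104298703 and Clu 65969794 and 65981028, which were lower. SSCT F0 replicate 2 lay outside the range of the controls at 9 of the 10 and replicate 1 inside it at 9 of the 10. At App 85151872, for example, replicate 2 was at 0% and the other 4 libraries at 100%, and at Mapt 104232547 replicate 2 was at 98.3% and the others at 0%. The calls thus followed 1 library, whose genome-wide mean of 17.7% was also lower than in the controls, and what set it apart was not tested. Slc6a4 had 38 positions in these 5 libraries, none called, and a mean of 4.19% ± 0.068 (n = 2) against 5.9% ± 0.653 (n = 3), with an exact permutation p of 0.1, the smallest possible here.

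The next comparison asked whether the first generation of offspring differed from the control offspring. In SSCT F1, 4 of 234 positions were called (1.71%), 1 higher and 3 lower, beside 0.462% of all positions, of which 0.24% were higher and 0.222% lower. They were 2 positions of App and 2 of Mapt, the latter 47 bp apart on the same strand. Differences were within 10 points at 211 of the 234. The F test called 0 of them (0.0% of all positions), and 2 at an unadjusted p under 0.05 (0.239% of all). All offspring of transplanted males were set against the same 5 Control F1 libraries. By the titles these also entered the SSCT F2/M comparison, from which the study chose the genes. By the exchanged names the libraries titled SSCT F1 entered it. Tests of the 4 genes against the libraries titled Control F1 are thus no independent result. Windows gave 0 calls of 53 (0.415% of all windows). Under either other assignment of the names, the SSCT F1 comparison called 2 of 256 positions, beside 0.404% of all.

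Of the gene means, App was 0.928 points higher in SSCT F1, at 68.0% ± 0.354 against 67.1% ± 0.795 (n = 5 each) over 109 positions. The exact permutation p was 0.0476 before and 1 after adjustment over all genes, and 4.47% of all genes had a p under 0.05. Mapt differed by -2.1 points (exact permutation p = 0.119), Clu by -0.545 (p = 0.476, exact) and Slc6a4 by 1.57 (p = 0.31, exact). Mapt had the same direction in F0 and F1, where F0 covers only 6 positions of 1 window. The test of the difference between both effects, over these 6 shared positions, gave -7.81 points with an exact permutation p of 0.326. For App the same test gave p = 0.994 by exact permutation. With the names exchanged, Slc6a4 was 1.21 points higher in SSCT F1, with an exact permutation p of 0.0397 that was 1 after adjustment, where 4.46% of all genes had a p under 0.05. The control there, the libraries titled SSCT F2/M, also entered the comparison that chose the genes, so this p-value is no independent result.

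The called positions below were picked by their values in these same libraries. Their q-values and exact permutation p-values describe them and are no independent result. By the titles, the largest difference of SSCT F1 was at Mapt chr11:104298501, read on the plus strand. Methylation was 53.8, 30.8, 52, 34.5 and 48.8% in Control F1 and 0, 34.8, 4.55, 28.6 and 0% in SSCT F1, a read-weighted difference of -35.6 points (q = 1.66e-09, exact permutation p over mice = 0.0238). SSCT F2/P was at 25, 24, 0, 0 and 25.4%, below every Control F1 mouse, with a difference of -27.1 points (exact permutation p = 0.00794, the smallest that 5 mice against 5 allow). SSCT F2/M was at 59.1, 16.7, 0, 36.8 and 55.6%, which spans the controls and both other SSCT groups. Control F0 was at 34.5, 0 and 24%, so that untreated males of the older generation were as low as the SSCT groups. Under both other assignments of names the SSCT F1 difference was -7.58 points (q = 0.206) and was not called.

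Another Mapt position nearby, chr11:104298548, was 0% in all 5 SSCT F1 mice. Control F1 was at 48, 0, 51, 0 and 37.5% and overlapped it at 0 (difference -33.1 points, exact permutation p = 0.167). SSCT F2/P was at 0, 0, 15.4, 0 and 16.4% (difference -25.3 points, exact permutation p = 0.167). Both of these groups were low, but Control F1 held mice at 0 too. SSCT F2/M was at 40.9, 0, 44.4, 49.1 and 67.6%, and Control F0 at 100, 0 and 24%. With the names of the heat map, which make SSCT F2/P the SSCT F1 group and SSCT F2/M its control, the difference was -35.3 points. The libraries titled SSCT F2/M also entered the comparison that chose the genes, so this difference is given without a test. Both called Mapt positions lie 47 bp apart on the plus strand and had nearly the same read counts in each mouse. They may thus come from the same reads, and their calls are not independent. The positions 104298511 and 104298538 between both Mapt positions were not called. At 104298511 Control F1 was at 14.4% ± 15 and SSCT F1 at 22.2% ± 23.4 (n = 5 each).

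The calls in App went in opposite directions. At chr16:84978719, 194988 bp downstream of the start and inside the predicted gene Gm10791, SSCT F1 was at 61.5, 32.5, 85, 34.8 and 67.4% and Control F1 at 40.5, 3.03, 15.4, 0 and 46.7%, a difference of 30.8 points (q = 5.31e-06, exact permutation p = 0.0476). At chr16:85151748, 21959 bp downstream, SSCT F1 was at 40, 81.6, 50, 12.5 and 40.7% and Control F1 at 65.5, 100, 100, 25 and 87.2%, a difference of -27.9 points (q = 6.94e-06, exact permutation p = 0.127). The groups overlapped at both positions. In the SSCT F1 comparison of the other names neither was called, with differences of -3.75 and -3.93 points.

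**Figure D4:**
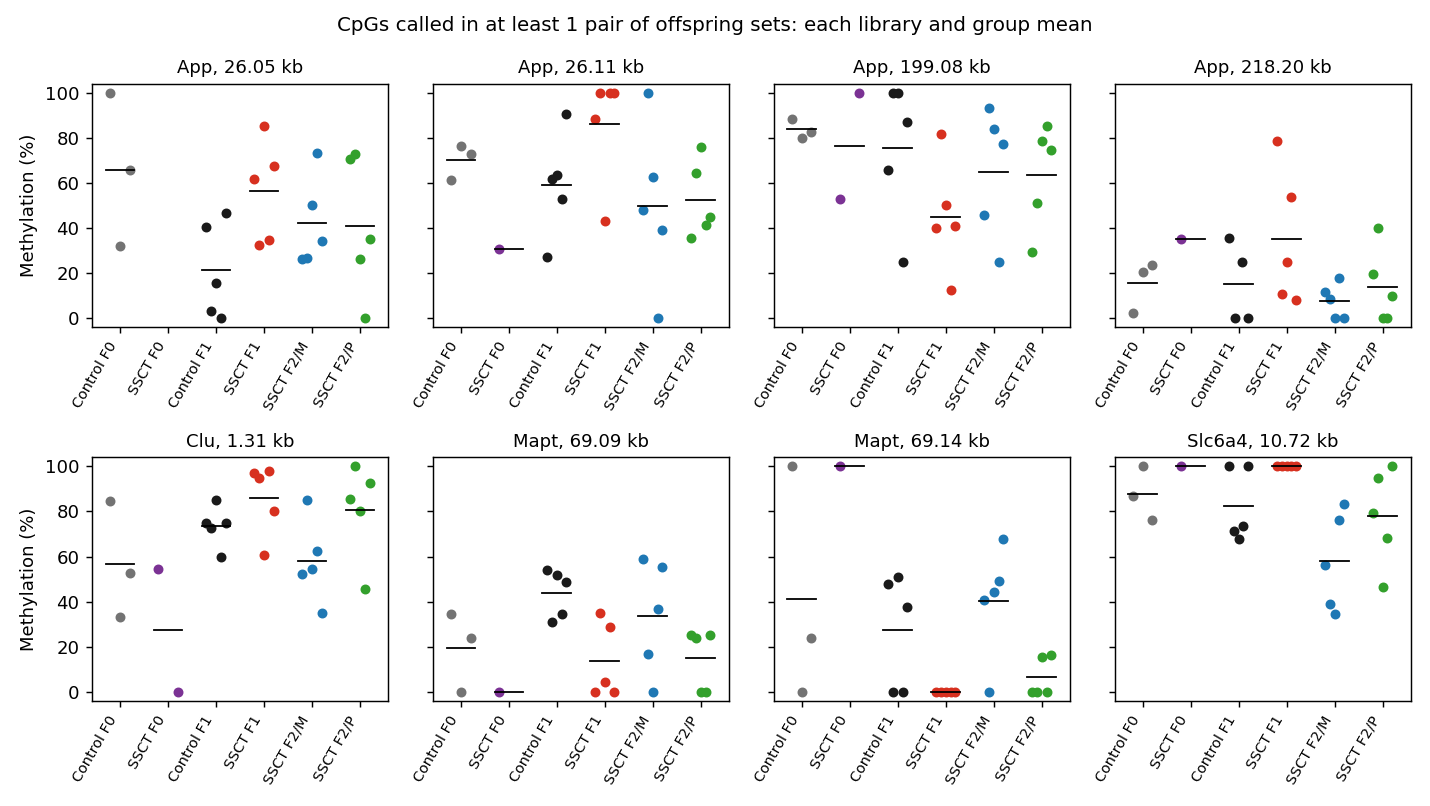
Methylation (vertical axis, percent) of each mouse (points) by group (horizontal axis) at the 8 positions called in an offspring comparison under any assignment of names. Mice of a group scatter widely at most of them, and Mapt 104298501 is at most 25.4% in SSCT F2/P and at least 30.8% in Control F1.

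The F2 comparisons asked whether differences were present a generation later, in the maternal or the paternal line. In SSCT F2/P, 2 of 255 positions were called, beside 0.43% of all, both of them the Mapt positions described above and both lower, as were 0.224% of all. These 2 calls may rest on the same reads. The F test called 0 (0.0% of all), and 2 at an unadjusted p under 0.05 (0.223%). With the names of the heat map it was 5 of 243 positions (0.439% of all), and with both F2 sets exchanged 0 of 250 (0.42%). The first count sets the libraries titled SSCT F1 against those titled SSCT F2/M, and the other those titled Control F1 against SSCT F2/M. Both are the SSCT F2/M comparison under another assignment of names, and the study chose the genes from SSCT F2/M, so nothing is read from these counts. By the titles 1 of the Mapt positions had no overlap between groups, as had 0.142% of all positions. Slc6a4 was 0.94 points higher in SSCT F2/P, at 33.6% ± 0.261 against 32.7% ± 0.738 over 49 positions, with an exact permutation p of 0.0317 before and 1 after adjustment. Without the 2000 bp on either side of the gene the difference was 0.106 points (exact permutation p = 0.913). The share of all genes with a p under 0.05 was 4.56%. App differed by 0.246 points, Mapt by 0.906 and Clu by 0.892, with exact permutation p-values of 0.627, 0.381 and 0.532. Mapt was thus slightly higher over the 59 positions of this comparison and lower over the 29 shared by all offspring, so its direction depended on the positions. Windows gave 0 calls of 54 in the maternal line, 0 of 53 in the paternal line and 0 of 47 in the pooled F2 group, beside 0.363, 0.392 and 0.143% of all windows.

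The study chose the genes from a comparison of SSCT F2/M with Control F1, which is described without a test under every assignment of names. By the titles, 0 of 250 positions were called, where 0.42% of all were, and the pooled F2 group had 0 of 211 beside 0.187%. Gene means differed by 0.475 points for App, -0.217 for Mapt, 0.0543 for Clu and -0.715 for Slc6a4. The positions nearest to the limit of 25 points were App 84978795, with 19.9 points, and App 84978775, with -22.6 points. With the names exchanged, which set the libraries titled SSCT F1 against those titled SSCT F2/M, 5 of 243 positions were called beside 0.439% of all, with at least 1 in each of the 4 genes. Only this assignment of names gives SSCT F2/M calls in the 4 genes. The choice of the genes thus rests on this comparison, and nothing is read from that count. Nearest inside the limit were Clu 65969794 (29.98 points) and Mapt 104298548 (-43.1 points), and nearest outside Mapt 104270141 (23.6 points) and App 85080481 (-17.2 points).

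The serotonin transporter position of that comparison was chr11:77009317 on the minus strand, 10720 bp downstream of the start and inside the predicted gene Gm12343. All 5 mice titled SSCT F1 were at 100%, and those titled SSCT F2/M were at 56.4, 38.9, 34.6, 76.1 and 83.3%, without overlap (36.3 points), as were 0.132% of all positions of that comparison. Control F1 was at 100, 71.4, 67.9, 73.5 and 100%, SSCT F2/P at 79.4, 95, 46.5, 68.4 and 100% and Control F0 at 86.7, 100 and 76.2%. The SSCT F2/M libraries were thus the lowest set, and the other groups had mice at or near 100%. The cytosine on the opposite strand of the same CpG, 77009316, was at 93.1% ± 8.57 in SSCT F1 and at 90.5% ± 9.93 in SSCT F2/M (n = 5 each).

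The clusterin position was chr14:65969794, 1311 bp from the start of the span. SSCT F1 was at 96.9, 95, 60.9, 98.1 and 80% and SSCT F2/M at 52.2, 85.3, 54.5, 62.5 and 34.8%, a difference of 29.98 points with overlap. Control F1, at 75, 72.7, 85.1, 60 and 75%, lay between them, and SSCT F2/P was at 85.4, 100, 80, 45.5 and 92.5%. Control F0 was at 84.6, 33.3 and 52.8%. The neighbouring position 65969827 had the reverse order, with 70.0% ± 24.6 in SSCT F1 and 85.6% ± 7.18 in SSCT F2/M.

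Both App positions of that comparison were higher in the libraries titled SSCT F1. At chr16:84978775, 88.5, 100, 42.9, 100 and 100% stood against 48, 100, 62.5, 0 and 39.1% in SSCT F2/M (45.9 points), with Control F1 at 27.3, 61.7, 63.4, 52.6 and 90.6%. At chr16:85170867, 2840 bp downstream of the start, 78.6, 10.7, 25, 53.8 and 8% stood against 11.4, 8.45, 0, 18 and 0% (30.8 points). The groups overlapped at both.

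Called positions were mostly at intermediate levels. In SSCT F1, 3 of the 11 positions of the 4 genes with a mean from 20 to 80% were called. Over the genome 85.5% of all called positions were in this class and 5.83% of the class was called. In SSCT F2/P it was 1 of 12, against 5.5%, and the other called position, Mapt 104298548, had a mean under 20%. This is the class with the largest spread between mice of a group.

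Other genes of the same pathways were counted from lists. Of 19 genes of amyloid and tau metabolism, among them the secretase Bace1 and the kinase Gsk3b, 17 had covered CpGs in F0 and 19 in each offspring comparison. In F0, 3 of their 108 positions were higher and 3 lower (5.56%), in SSCT F1 1 of 660 was higher and 3 lower (0.606%), in SSCT F2/M 3 of 706 higher and 3 lower (0.85%) and in SSCT F2/P 1 of 802 higher and 1 lower (0.249%). Of 11 genes of serotonin and monoamine handling, 5 to 8 were covered. They had 2 higher of 39 in F0, both in the noradrenaline transporter gene Slc6a2, 2 lower of 117 in SSCT F1, both in the serotonin receptor gene Htr2a, and none called among 132 positions for SSCT F2/M or 148 for SSCT F2/P. Of all positions 5.83% were called in F0, 0.462% in SSCT F1, 0.42% in SSCT F2/M and 0.43% for SSCT F2/P. The median difference was 0 points in both lists and over all positions.

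By the titles, the 5 largest differences of these lists were all in F0, and under both other assignments Cdk5 chr5:24416665 differed by 54.4 points in SSCT F1. At chr10:127614372 in Lrp1, a receptor that takes up apolipoprotein E and amyloid, methylation was 30.8% ± 33 in SSCT F0 and 84.2% ± 11.6 in Control F0 (n = 3 each, -72.8 points weighted by reads, exact permutation p = 0.1), without overlap, as were 3.1% of all positions. The other Lrp1 positions, 127594527 and 127594543, differed by -68.7 and -66.1 points. SSCT F0 was at 66.7% ± 57.7 at both, a spread close to the differences, and Control F0 at 98.3% ± 2.89 and 96.7% ± 5.77. At chr7:19698675 in Apoe, the lipid carrier with the main inherited risk for Alzheimer's disease, SSCT F0 was at 28.5% ± 42.9 and Control F0 at 6.48% ± 5.78. In Map4, a microtubule protein related to tau, chr9:109932303 differed by 50.8 points. The mice of both groups overlapped at these positions, with exact permutation p-values of 0.9 for Apoe and 1 for Map4, and the SSCT F0 mean of Map4 had a standard deviation of 57.7 points.

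Gene means of other genes that varied most like those of the 4 genes over the 20 offspring had Pearson r of 0.718 to 0.747 among 14675 genes with at least 10 shared positions. They were Ak5 and 1700113A16Rik for App, Htra2 and Aup1 for Mapt, Rbis and Chrna7 for Clu, and Gm31325 and Gm10687 for Slc6a4. These are the highest of many, the points share libraries and depth, and they are given as a description.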

How the data were processed

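Sperm DNA of 26 mice was prepared with a commercial RRBS kit and sequenced. The authors deposited, for each library and covered cytosine, how many reads covered it, an unnormalized count, and the methylated fraction. FastQC, Trim Galore 0.4.1, Bismark 0.20.0, methylKit 1.7.0 and the build GRCm38 (mm10) stand in the submitters' processing notes without a role. Methylated reads were recovered as fraction times count. Groups followed the sample titles.

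A comparison used positions that reached 10 reads in each of its libraries, with coverage up to the 99.9th percentile of each library. A logistic model with group as its term was tested by a likelihood-ratio chi-square test with Benjamini-Hochberg q-values over all positions, and again on sums over 1000 bp windows, with a call at q under 0.01 and more than 25 points of read-weighted difference. Gene means over at least 3 positions were compared by a two-sided exact permutation test over mice, run over all RefSeq genes with Benjamini-Hochberg adjustment. Python 3.11.15, NumPy 2.4.6, SciPy 1.17.1, pandas 2.3.3 and matplotlib 3.10.9 were used, and the procedures were tested on simulated data. Promoters came from RefSeq (GRCm38.p6), where 2 of the genes were used. No library was a duplicate of another (largest correlation of offspring libraries 0.971).

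The genes and lists were chosen with earlier results of these data known. Named were the 4 genes, each of their positions called in any comparison or nearest to 25 points in the one that chose them, the 5 largest called differences of the lists, and per gene the 2 genes with the most similar means. Positions in the unmethylated runs, the neighbours of called positions and the genes Slc6a2 and Htr2a were named after their values were seen. Alternatives were a minimum of 5 or 20 reads, no upper limit, the other 2 assignments of names, merged strands, spans without 2000 bp, the F test, a 10 point limit, replicate number as a block, read-weighted means, leaving out positions from 20 to 80%, windows shifted by 500 bp and leaving out each library.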

Additional observations from a re-analysis of the deposited data

Results flagged for a closer look

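Among 48 groups of 5 mice, 2 held a mouse whose gap to the others exceeded 0.71 of the range of the group, as chance does for about 1 group in 20. The mean methylation of App in SSCT F1 was 61.9% in 1 mouse, while the highest was 63.2% (ratio 0.823). At App chr16:84978775, 1 SSCT F1 mouse was at 42.9% and the others at 88.5 to 100% (ratio 0.798).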

How the results depend on the processing

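At a minimum of 5 reads, SSCT F1 gave 9 called positions among 353 tested in the 4 genes. SSCT F2/M gave 1 call among 410 and pooled F2 gave 1 among 341. The pathway lists had 4 calls among 1496 positions for SSCT F2/P and 11 among 1395 for SSCT F2/M. At 20 reads the 4 genes had no call among 92 positions for SSCT F1 or among 100 for SSCT F2/P. The lists then had 3 calls among 65 positions for F0, 2 among 242 for SSCT F1 and 1 among 309 for SSCT F2/M. They had none among 314 for SSCT F2/P or among 247 for pooled F2. The mean difference of Mapt in SSCT F2/M was then -2.01 points and that of Slc6a4 0.169, and in SSCT F2/P Clu (-0.368) and Slc6a4 (-0.116) turned. The named positions were not covered in every library at 20 reads. What share of all positions is called at 5 or 20 reads is not given. A higher or lower count of calls there is thus not read as more or less signal.

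With the names of the heat map, the 4 genes had 2 called positions in SSCT F1, 5 in SSCT F2/P and 3 in pooled F2, and the lists 0 in SSCT F2/P and pooled F2. Mean differences were 0.298 points for Clu in SSCT F1, -0.475 for App and 0.715 for Slc6a4 in SSCT F2/M and -0.7997 for Mapt in SSCT F2/P, and App 84978719 differed by -3.75 points in SSCT F1. With both F2 sets exchanged, the 4 genes had 2 in SSCT F1, 5 in SSCT F2/M, 0 in SSCT F2/P and 3 in pooled F2, and the lists 0, 6 and 0 in SSCT F2/M, SSCT F2/P and pooled F2. Both counts of 5 come from the same libraries, those titled SSCT F1 against those titled SSCT F2/M. Mean differences were then 0.298 points for Clu and -3.75 at App 84978719 in SSCT F1, 2.33 for Slc6a4 in SSCT F2/M, and -0.475 for App, -0.0543 for Clu and 19.5 at Mapt 104298501 in SSCT F2/P.

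Merged strands gave the lists 1 call among 972 positions for SSCT F2/P and 1 among 811 for pooled F2. The F test called 0 positions in the 4 genes in SSCT F1 and SSCT F2/P and 0 in the lists in all 5 comparisons. A limit of 10 points gave the 4 genes 4 of 20 positions in F0, 17 of 234 in SSCT F1 and 20 of 250 in SSCT F2/M. In SSCT F2/P it gave 17 of 255 and in pooled F2 9 of 211. In the same order the lists had 18 of 147, 31 of 777, 30 of 838, 49 of 950 and 21 of 725. The windows had 1 of 7, 3 of 53, 5 of 54, 2 of 53 and 1 of 47. The share of all positions and windows called at 10 points is not given, so these counts cannot be set against it. Read-weighted means differed by -16.1 points for App in F0, by -4.16 for App and -2.73 for Clu in SSCT F2/M, and by -1.26 for Mapt, -1.99 for Clu and -2.15 for Slc6a4 in SSCT F2/P. The cause was not tested.

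Leaving out 1 library, called positions of the 4 genes ranged from 0 to 10 (F0), 2 to 6 (SSCT F1), 0 to 3 (SSCT F2/M), 0 to 5 (SSCT F2/P) and 0 to 1 (pooled F2). The 10 came without SSCT F0 replicate 3, among 192 positions tested, where 5.83% of all positions were called. In SSCT F2/P the 0 came without Control F1 replicate 3 and the 5 without Control F1 replicate 4. List counts ranged from 8 to 36, 3 to 8, 5 to 8, 1 to 8 and 0 to 5 in the same order, and windows from 0 to 2, 0 to 2, 0 to 1, 0 to 0 and 0 to 0. Apart from the 10 in F0, the number tested and the share of all called are not given with these ranges. Their higher counts are thus not read as more signal. Mean differences ranged from -0.87 to 2.88 (App) and -13.9 to -4.63 (Mapt) in F0, from 0.661 to 1.51 (App), -2.6 to -1.27 (Mapt), -0.999 to -0.2 (Clu) and 0.794 to 2.21 (Slc6a4) in SSCT F1, from 0.219 to 0.705, -0.592 to 0.965, -0.673 to 0.602 and -0.997 to -0.545 in SSCT F2/M and from -0.0525 to 0.545, -0.0281 to 1.39, 0.189 to 1.71 and 0.463 to 1.37 in SSCT F2/P. No upper limit of coverage, spans without 2000 bp and shifted windows moved no count by over 1.5 times. Spans without 2000 bp left App, Mapt and Clu as they were and gave Slc6a4 2.61 points in SSCT F1, 0.106 in SSCT F2/P and -0.989 for SSCT F2/M. Without positions from 20 to 80%, App in SSCT F1 was at 0.443 points (exact permutation p = 0.183), and Mapt in SSCT F2/M at 0.11.

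Replicate numbers did not pair the mice, with 30 correlations of deviations from -0.0112 to 0.00978 and 6 of 20 libraries nearest to their own number. A fit with the replicate number as a block left the counts of the 4 genes as they were (4 in SSCT F1), and the lists had 6 calls in F0 in place of 8. For gene means it gave App in SSCT F1 0.928 points (p = 0.125) and Slc6a4 in SSCT F2/P 0.94 points (p = 0.125) by exact sign flips, where 0.0625 is the smallest possible. The F0 comparison was limited most by the few positions covered in all 6 libraries.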

Other observations

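Both strands of a CpG can be compared where each had at least 10 reads. Over all 49277 pairs covered in the 20 offspring, 962 (1.95%) differed by more than 50 points, and none of those in the 4 genes did. With pairs covered in at least 15 offspring libraries, 2 CpGs of Mapt did, and they were chosen after their values were seen. The share of all pairs at this coverage was not counted, and that of pairs covered in all 20 does not stand for it. At chr11:104270140 the plus strand was at 99.4% ± 1.73 and the minus strand, 104270141, at 26.6% ± 28 (n = 17 libraries). At 104270189 the plus strand was at 42.5% ± 21.1 and the minus strand, 104270190, at 99.8% ± 0.861 (n = 15). The CpG between them was at 98.9% and 100% on its strands.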
